A study of Mus musculus with 12 samples.

Results

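Libraries of mouse joint stroma were compared by the number that ends each cell barcode, and not by the stage they were labelled with. Suffixes 4, 5 and 6 (the libraries labelled resolved 1, rest 2 and peak 2) were set against suffixes 1, 2 and 3 (labelled rest 1, peak 1 and resolving 1), which is 6 of 12 libraries and 9090 of 20213 cells, 4763 on the side of suffixes 4 to 6 and 4327 on the other. The groups were chosen by the data: fibroblast sums were more alike within each side than across the sides, so all differences between them are given as descriptions, with no p-value. All mice were WT C57BL/6 males of 8 to 10 weeks. Serum transfer-induced arthritis (STIA) was started with 100 µl of intravenous serum from K/BxN mice, and hind limb joints were taken at day 0 without serum for the libraries labelled rest. Peak libraries come from days 7 to 9, those labelled resolving from day 15 and those labelled resolved from day 22. Each library is a pool of CD45-negative cells sorted from the joints of 3 animals, so animal-to-animal spread within a pool was not measured. Each side of the comparison holds 1 library labelled rest and 1 labelled peak, the third being labelled resolving on the side of suffixes 1 to 3 and resolved on the side of suffixes 4 to 6. The stage behind a suffix cannot be told apart from the sequencing or handling run that the suffix may stand for.

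The synovium is the membrane that lines a joint. Its lining fibroblasts secrete lubricin and hyaluronan, its sublining fibroblasts form the loose matrix around vessels, and in arthritis synovial fibroblasts are known as sources of neutrophil-attracting chemokines, matrix metalloproteinases and new collagen. Glycolytic genes, among them the hexokinase gene Hk2 that the study is about, are known to be raised in such fibroblasts.

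Counts of unique molecular identifiers (UMIs) were deposited for 1277 to 1896 cells in each of the 6 libraries, with a median of 5358 UMIs per deposited cell in every one of the 12 libraries. Cells with more than 500 and fewer than 5000 detected genes were kept. This left out 108 cells below and 6 above the limits on the side of suffixes 1 to 3, and 252 below and 11 above on the other, and the values nearest to the limits were 482 outside at the lower end, where the first number allowed was itself present, and 4989 inside and 5019 outside at the upper end. The kept cells had a median of 5313 to 5328.5 UMIs per library on the side of suffixes 1 to 3 and 5539 to 5963 on the side of suffixes 4 to 6. Between 7774282 and 12825869 UMIs were kept per library, and no cell barcode was shared between libraries.

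Over 9884 genes, the log2 levels of the summed fibroblast-like cells correlated at 0.977 to 0.991 (Pearson's r) in the 6 pairs of libraries within a side, with 35 to 255 genes more than 2-fold apart. In the 9 pairs across sides r was 0.917 to 0.932, with 1248 to 1542 genes 2-fold apart. The pairs that share a label across the sides stood at the ends of this range, at 0.932 and 1248 genes for rest 2 against rest 1 and 0.917 and 1542 genes for peak 2 against peak 1. Libraries of suffixes 1 to 3 correlated with those of suffixes 10 to 12 at 0.9647 to 0.9825, with 143 to 538 genes 2-fold apart in 9 pairs. With one another they stood at 0.9775 to 0.984, with 137 to 255 genes, so that the ranges overlapped and the lowest values were across. Libraries of suffixes 4 to 6 correlated with those of suffixes 7 to 9 at 0.9595 to 0.9698, with 453 to 661 genes 2-fold apart. These correlations are across genes, which are not independent replicates, and they are the property by which the sides were chosen.

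Promoters of some genes described below are shown first, with short motifs that were searched in the chemokines, the metalloproteinases and the circadian genes. Each runs from 250 bases before the transcript start to 50 after it, as given by RefSeq on GRCm38.p6. In the promoters of Cxcl1 (chr5:90890995-90891294, + strand), Cxcl3 (chr5:90785851-90786150, + strand) and Cxcl2 (chr5:90903649-90903948, + strand), capitals mark matches to the NF-kB motif GGGANNTTCC, which on its 2 strands overlap into the same 11 letters in all 3 genes and start 71, 73 and 97 bases before the transcript start.
Cxcl1: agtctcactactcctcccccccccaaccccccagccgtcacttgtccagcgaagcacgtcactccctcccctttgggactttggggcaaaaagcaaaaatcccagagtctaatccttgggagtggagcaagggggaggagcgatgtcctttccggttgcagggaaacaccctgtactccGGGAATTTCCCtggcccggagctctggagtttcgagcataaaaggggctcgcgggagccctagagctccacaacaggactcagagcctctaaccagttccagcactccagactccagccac
Cxcl3: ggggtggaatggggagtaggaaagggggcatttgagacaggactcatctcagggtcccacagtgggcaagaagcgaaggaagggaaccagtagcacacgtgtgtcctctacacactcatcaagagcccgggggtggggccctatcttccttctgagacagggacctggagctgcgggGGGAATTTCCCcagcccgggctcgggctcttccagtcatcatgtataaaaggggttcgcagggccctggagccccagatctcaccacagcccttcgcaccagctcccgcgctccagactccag
Cxcl2: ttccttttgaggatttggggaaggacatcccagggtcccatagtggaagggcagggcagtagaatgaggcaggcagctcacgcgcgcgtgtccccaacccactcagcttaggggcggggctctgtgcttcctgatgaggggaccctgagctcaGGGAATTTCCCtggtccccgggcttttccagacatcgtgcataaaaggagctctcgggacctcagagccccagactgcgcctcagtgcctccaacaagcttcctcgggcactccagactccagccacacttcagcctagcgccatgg
Of all 27025 promoters of the same length, 387 (1.43%) hold this motif on either strand, as do 3 of the 6 promoters at hand of the neutrophil-attracting CXC chemokines, 0 of 6 of the monocyte- and eosinophil-attracting CC chemokines and 0 of 11 of the acute-phase proteins. Cxcl5 is not among the 3. In the promoters of the metalloproteinases Mmp3 (chr9:7445572-7445871, + strand) and Mmp13 (chr9:7272264-7272563, + strand), capitals mark the AP-1 motif TGANTCA, which lies 46 and 35 bases before the start.
Mmp3: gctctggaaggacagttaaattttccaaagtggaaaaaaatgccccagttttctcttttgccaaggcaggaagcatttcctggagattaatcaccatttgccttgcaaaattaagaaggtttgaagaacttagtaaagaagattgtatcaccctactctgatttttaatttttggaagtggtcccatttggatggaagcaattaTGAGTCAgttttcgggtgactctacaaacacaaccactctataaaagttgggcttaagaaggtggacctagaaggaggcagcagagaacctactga
Mmp13: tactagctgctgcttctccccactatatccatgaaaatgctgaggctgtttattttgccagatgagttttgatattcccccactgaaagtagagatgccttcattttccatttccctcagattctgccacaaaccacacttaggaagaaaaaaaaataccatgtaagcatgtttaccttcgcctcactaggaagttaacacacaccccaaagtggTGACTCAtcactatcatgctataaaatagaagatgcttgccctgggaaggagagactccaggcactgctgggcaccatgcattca
This motif is in 2144 of all promoters (7.93%) and in 3 of 11 metalloproteinase promoters, those of Mmp3, Mmp10 and Mmp13. For the clock genes, capitals mark the E-box CACGTG of Tef (chr15:81802423-81802722, + strand), 127 bases before its start, and the 2 matches to the D-box TTANGTAA in Per3 (chr4:151044616-151044915, - strand), 205 and 158 bases before its start.
Tef: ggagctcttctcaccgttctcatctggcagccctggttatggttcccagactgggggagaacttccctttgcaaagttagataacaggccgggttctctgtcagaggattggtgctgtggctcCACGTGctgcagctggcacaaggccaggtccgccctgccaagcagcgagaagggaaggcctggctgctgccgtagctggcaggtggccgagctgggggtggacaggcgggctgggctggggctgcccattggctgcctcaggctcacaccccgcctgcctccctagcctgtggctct
Per3: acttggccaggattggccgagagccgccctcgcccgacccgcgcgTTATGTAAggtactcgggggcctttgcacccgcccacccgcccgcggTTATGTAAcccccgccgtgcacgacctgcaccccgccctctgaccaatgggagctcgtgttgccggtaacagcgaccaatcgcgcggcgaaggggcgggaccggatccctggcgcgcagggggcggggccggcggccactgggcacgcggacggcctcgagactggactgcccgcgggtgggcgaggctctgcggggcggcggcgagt
The E-box is in 1957 promoters (7.24%) and in 6 of 18 of the glucocorticoid and circadian list, and the D-box in 632 (2.34%) and in 1 of those 18, that of Per3. A further motif, the CArG box, was searched in the myofibroblast and scar matrix list. It is in 425 of all promoters (1.57%) and in 1 of 10 of that list, that of Myl9, which is not shown. A match is a description of these letters and shows no binding.

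The cell make-up differed between the sides in several cell classes. Clustering gave 25 clusters, of which 10 were fibroblast-like. Clusters were named from marker genes, and of 12 named classes and 3 clusters left unnamed, the shares of the 3 libraries on one side lay all above those on the other in 11, which is 73.3%. Clusters were made from the same cells and genes, so these shares are a description.

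Proliferating-like cells, led by cell-cycle genes such as Birc5, Ube2c and Top2a, made up 0.458%, 0.0741% and 0.487% of cells in rest 1, peak 1 and resolving 1. In resolved 1, rest 2 and peak 2 they made up 12.7%, 8.06% and 11.7%, so the lowest of these was above the highest of the other side. The means were 0.340% ± 0.231 and 10.8% ± 2.45 (SD, n = 3 libraries each). The difference was 10.5 percentage points, 10.4 without the cells with the highest doublet scores and 7.79 when clusters were made without the genes called between the sides. These cells had high UMI counts, with medians of 13169 to 16469 per library on the side of suffixes 4 to 6.

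Osteoblast-like cells, led by Bglap and Ibsp, made up 16.7%, 9.41% and 11.1% of cells on the side of suffixes 1 to 3 and 5.59%, 3.84% and 4.59% on the side of suffixes 4 to 6. Chondrocyte-like cells, led by Col2a1, made up 5.44%, 4.15% and 5.77% against 1.38%, 0.877% and 0.612%, and those that remained on the side of suffixes 4 to 6 were shallower, with medians of 4999.5 to 8166 UMIs against 15315 to 17749.5. Muscle-like cells, led by Myod1 and Pax7, made up 2.64%, 2.07% and 3.17% against 0.219% in rest 2 and 0.0612% in peak 2. In resolved 1, 0 of 1305 cells were muscle-like, which allows a share of up to 0.230% (3 counts of the total). Tenocyte-like cells made up 11.6%, 8.74% and 8.69% against 4.75%, 6.47% and 5.33%, a difference of 4.15 percentage points in the means that was 1.68 when clusters were made without the called genes.

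Sublining fibroblast-like cells, led by Pi16 and Dpp4, made up 9.51%, 9.70% and 14.3% of cells on the side of suffixes 1 to 3 and 1.53%, 1.26% and 1.59% on the side of suffixes 4 to 6. The lining fibroblast-like cells, led by Prg4, differed the other way, with 3.67%, 4.52% and 3.49% against 6.74%, 6.19% and 5.33%. All fibroblast-like cells together made up 48.5%, 61.1% and 55.1% against 60.5%, 62.8% and 63.3%, and these ranges overlapped.

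Of the vessel cells, perivascular-like cells made up 2.86%, 2.82% and 2.03% against 4.67%, 3.40% and 3.43%. An endothelial cluster led by Timp4, Gpihbp1 and Cd36 (endothelial cluster 9, left unnamed because the adipocyte marker Fabp4 is among its leading genes) made up 6.07%, 6.44% and 6.74% against 1.92%, 2.52% and 2.08%. The vascular endothelial-like cluster, led by Plvap and Selp, was higher on the side of suffixes 4 to 6, with 3.68%, 5.04% and 3.49% against 2.29%, 2.74% and 2.76%. This last direction turned, from 1.47 to -2.78 and -2.63 percentage points, with coarser clusters and with clusters made without the called genes. Immune-like cells, which the CD45-negative sort should leave out, made up 0.613%, 0.438% and 2.39% of cells against 0%, 0.0741% and 0.244%, with 39 of the 55 on the side of suffixes 4 to 6 coming from peak 2.

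**Figure D1:**
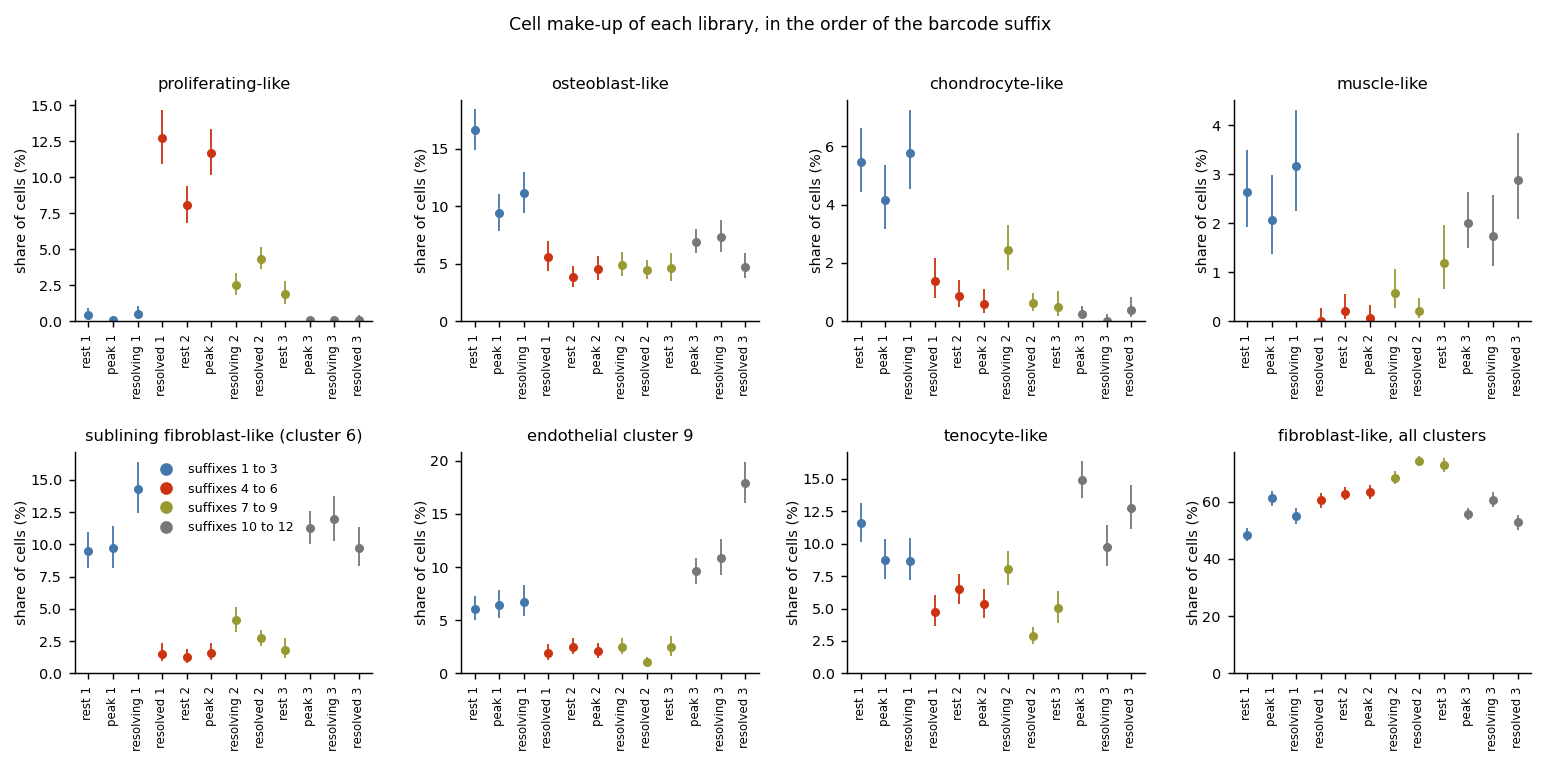
Share of each library's cells in 8 cell classes, in percent of kept cells, for the 12 libraries in the order of their barcode suffix. Points are libraries with exact 95% Clopper-Pearson intervals for counting error, and proliferating-like cells stay below 0.5% with suffixes 1 to 3 and lie at 8.06% to 12.7% with suffixes 4 to 6.

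Within the fibroblast-like cells, different clusters held most cells on the 2 sides. A cluster led by Cxcl5, Saa3 and Sfrp1 held none of them with suffixes 1 to 3 and 34.7% to 38.5% with suffixes 4 to 6, and a cluster led by Col5a3, Il1rl1 and Lrrc15 held 0% to 0.885% and 7.35% to 16.9%. With suffixes 7 to 9 the Cxcl5 cluster held 3.86% to 4.82% and the Col5a3 cluster 20.5% to 33.1%, more than with suffixes 4 to 6. A cluster led by Inmt, Dkk2 and Serpina3c held 16.7% to 36.0% with suffixes 1 to 3 and 4.93% to 6.97% with suffixes 4 to 6, and the Pi16 and Dpp4 cluster 15.9% to 26.0% and 2.01% to 2.54%. A cluster led by Ifi205, Ccl7 and C4b was close in size, at 16.67% to 23.03% and 15.1% to 20.0%. Values with an equal make-up, for equal numbers of cells from the 6 fibroblast clusters that had at least 10 cells in every one of the 6 libraries, are therefore set beside the gene results. This limit left out the clusters led by Cxcl5, Saa3 and Sfrp1 and by Col5a3, Il1rl1 and Lrrc15. It also left out those led by C1qtnf3, Spon2 and Rgs2 and by Fbln7, Itih2 and Plxdc1. Values with an equal make-up therefore hold no cells of these clusters. Of 153 called genes that are named or on a list, 130 were tested in that setting, 54 were called the same way, and in 2, Il1r2 and Usp18, the direction turned. The clusters were made from the same genes, so that an equal make-up also holds back differences by which the clusters were drawn.

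UMIs of fibroblast-like cells were summed per library and given as CPM, the UMIs of a gene per 1000000 UMIs of the sum. Cells with more UMIs weigh more in such a sum. The cluster led by Cxcl5, Saa3 and Sfrp1 had a median of 10935 UMIs per cell over all 12 libraries. The other fibroblast-like clusters had medians of 3901 to 7675. A gene was called where its 3 values on one side were all above the 3 on the other and the log2 fold change from edgeR was at least 1 either way. The values compared were log2 CPM with TMM scaling and a prior count of 2, so that Ankrd37 of the hypoxia-induced and Has2 of the hyaluronan genes were called although their plain CPM overlapped, with 2.96 to 5.73 against 5.65 to 11.01 and 14.6 to 20.5 against 19.8 to 42.9. Of 11341 genes tested in fibroblast-like cells, 834 were called higher with suffixes 4 to 6, which is 7.35%, and 930 lower, which is 8.20%. With an equal cluster make-up 8720 genes were tested, on fewer cells, and 147 and 153 were called. Of the 834 and 930 genes, 444 and 624 were among those tested there, and 116 and 121 were called the same way. Over all genes tested the log2 fold changes had a median of -0.02. The genes just inside the limit of 1 were Ran at 1.001 ± 0.097 (SE), Zbtb20 at -1.002 ± 0.101 and Mgst1 at -1.002 ± 0.158, and the nearest outside were Tmem167 at 0.999 ± 0.101, Ptrf at -0.999 ± 0.098 and Lpl at -0.996 ± 0.139, so that a call near the limit separates genes of like size. All log2 fold changes below are suffixes 4 to 6 over suffixes 1 to 3, with 3 libraries a side and the standard error from the fit.

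Of the CXC chemokines that attract neutrophils, 3 of the 4 tested were called higher and none lower (median log2 fold change 3.76, with 7 members listed). Cxcl5 (chr5:90759360-90761624 on GRCm38) had the largest log2 fold change of the genes named in fibroblast-like cells, with 0.191, 2.06 and 0.986 CPM in rest 1, peak 1 and resolving 1 and 1117, 1077 and 942 CPM in resolved 1, rest 2 and peak 2. No library of the first side came near the second, and the log2 fold change was 9.98 ± 0.32. Rest 2, labelled as taken without serum, lay with resolved 1 and peak 2 and not with rest 1. Cxcl3 had 0.764, 0.618 and 0.247 CPM against 50.8, 48.5 and 46.8 (log2 fold change 6.45 ± 0.22). Cxcl1, whose promoter letters are shown above, was well expressed on each side, with 1972, 1404 and 1128 CPM against 3206, 3063 and 2733 (1.07 ± 0.18). Cxcl2 was not called, with 246, 139 and 93.2 CPM against 289, 229 and 197 and a log2 fold change of 0.65 ± 0.28. The same 11 letters stand before genes with small and large differences, and their part in these values was not tested. With an equal cluster make-up Cxcl5 and Cxcl3 were called at 6.70 and 6.61, and Cxcl1 and Cxcl2 had 0.80 and 0.28.

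Of the CC chemokines that attract monocytes and eosinophils, 4 of 7 tested were called higher and none lower (median 1.19). Ccl7 had 902, 993 and 744 CPM against 3212, 3298 and 2864, with no overlap and a log2 fold change of 1.90 ± 0.14 (1.32, called, with an equal make-up). Ccl2 had 1102, 955 and 724 CPM against 2164, 2069.9 and 1811 (1.19 ± 0.16, and 0.67 with an equal make-up, where it was not called). Ccl9 had 2.06 to 2.48 CPM against 31.7 to 41.1, and was called with an equal make-up too, at 3.36. The eosinophil chemokine Ccl11 was not called in either setting and had log2 fold changes of -0.93 ± 0.27 and, with an equal make-up, 0.64. Among the lymphoid and homeostatic chemokines 1 of 9 was called higher, and this was Ccl20, a ligand of the receptor Ccr6, with 1 UMI in all 3 libraries of suffixes 1 to 3 and 1401 in those of suffixes 4 to 6. Its pooled ratio was 896 with a counting interval of 160.6 to 35430.

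Of the interleukin-6 family and its receptors, 2 of 11 were called higher and 1 lower (median 0.27). Lif had 4.01, 3.30 and 5.18 CPM against 21.7, 30.03 and 19.4 (2.60 ± 0.24). Il11 was called at 2.20 ± 0.31. Il6ra, the receptor chain that binds interleukin-6, had 36.9, 32.8 and 34.3 CPM against 14.5, 10.3 and 14.7 (-1.33 ± 0.14). Il6 itself was not called, with 263, 139 and 98.4 CPM against 232, 281 and 251 (0.69 ± 0.28), and the sides overlapped. Lif was called with an equal make-up too, at 1.13, where Il6ra (-0.45) and Il6 (0.71) were not called and Il11 was not tested. Of the interleukin-1 and interleukin-33 axis 2 of 9 were called each way (median -0.13). Il1rl1, the receptor of interleukin-33, was called higher at 3.82 ± 0.31, and the interleukin-1 receptor antagonist Il1rn, with 2 UMIs on the side of suffixes 1 to 3 and 146 on the other, had a pooled ratio of 46.7 (12.7 to 389). The decoy receptor Il1r2 (-1.28 ± 0.31) and the inhibitor Irak3 (-1.07 ± 0.12) were called lower, but neither was with an equal make-up, where Il1r2 turned to 0.34 and Irak3 had -0.21. In that setting 2 of 7 of the axis were called higher and none lower (median 0.34), Il1rl1 had 1.17 and Il1rn was not tested. Ptgs2, the inducible cyclooxygenase, had 55.2, 40.2 and 37.5 CPM against 344, 239 and 301 (2.80 ± 0.17, and 1.54, called, with an equal make-up).

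Of 14 NF-kB subunits and feedback inhibitors tested, 2 were called higher (Nfkbie at 1.74 ± 0.21 and Nfkb2 at 1.03 ± 0.16) and 1 lower (Bcl3 at -1.05 ± 0.27), with a median of 0.11. The inhibitor Nfkbia had 0.06 ± 0.17. Nfkbie was called with an equal make-up, at 1.31, and there Nfkb2 (0.36), Bcl3 (-0.74) and Nfkbia (0.33) were not called.

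Of the acute-phase and defence proteins, 6 of 14 tested were called higher and 2 lower (median 1.24, and 4 of 12 higher with an equal make-up, median 0.84). Slpi, a secreted inhibitor of neutrophil elastase (chr2:164354070-164389095), had 11.5, 9.47 and 25.1 CPM against 1285, 682 and 1118. The sides were far apart, with a log2 fold change of 6.16 ± 0.35, and 4.69 with an equal make-up. Haptoglobin (Hp) had 50.1, 49.8 and 39.2 CPM against 729, 848 and 544, with no overlap, and a log2 fold change of 1.38, called, with an equal make-up. Serum amyloid Saa3 varied within a side, with 11.3 CPM in rest 1, 130.2 in peak 1 and 60.9 in resolving 1 against 1314, 1126 and 590.2 (3.96 ± 0.66). With an equal make-up it had 0.74 and was not called. Lcn2 had 38.2, 41.8 and 49.1 CPM against 158, 253 and 135 (2.16 ± 0.23). The complement gene C4b (-1.28 ± 0.18) and ceruloplasmin, Cp (-1.28 ± 0.18), were called lower, and complement C3 was not called (-0.01 ± 0.22). Lcn2 was called with an equal make-up, at 1.74, and there C4b (-0.56), Cp (-0.96) and C3 (0.95) were not called.

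**Figure D2:**
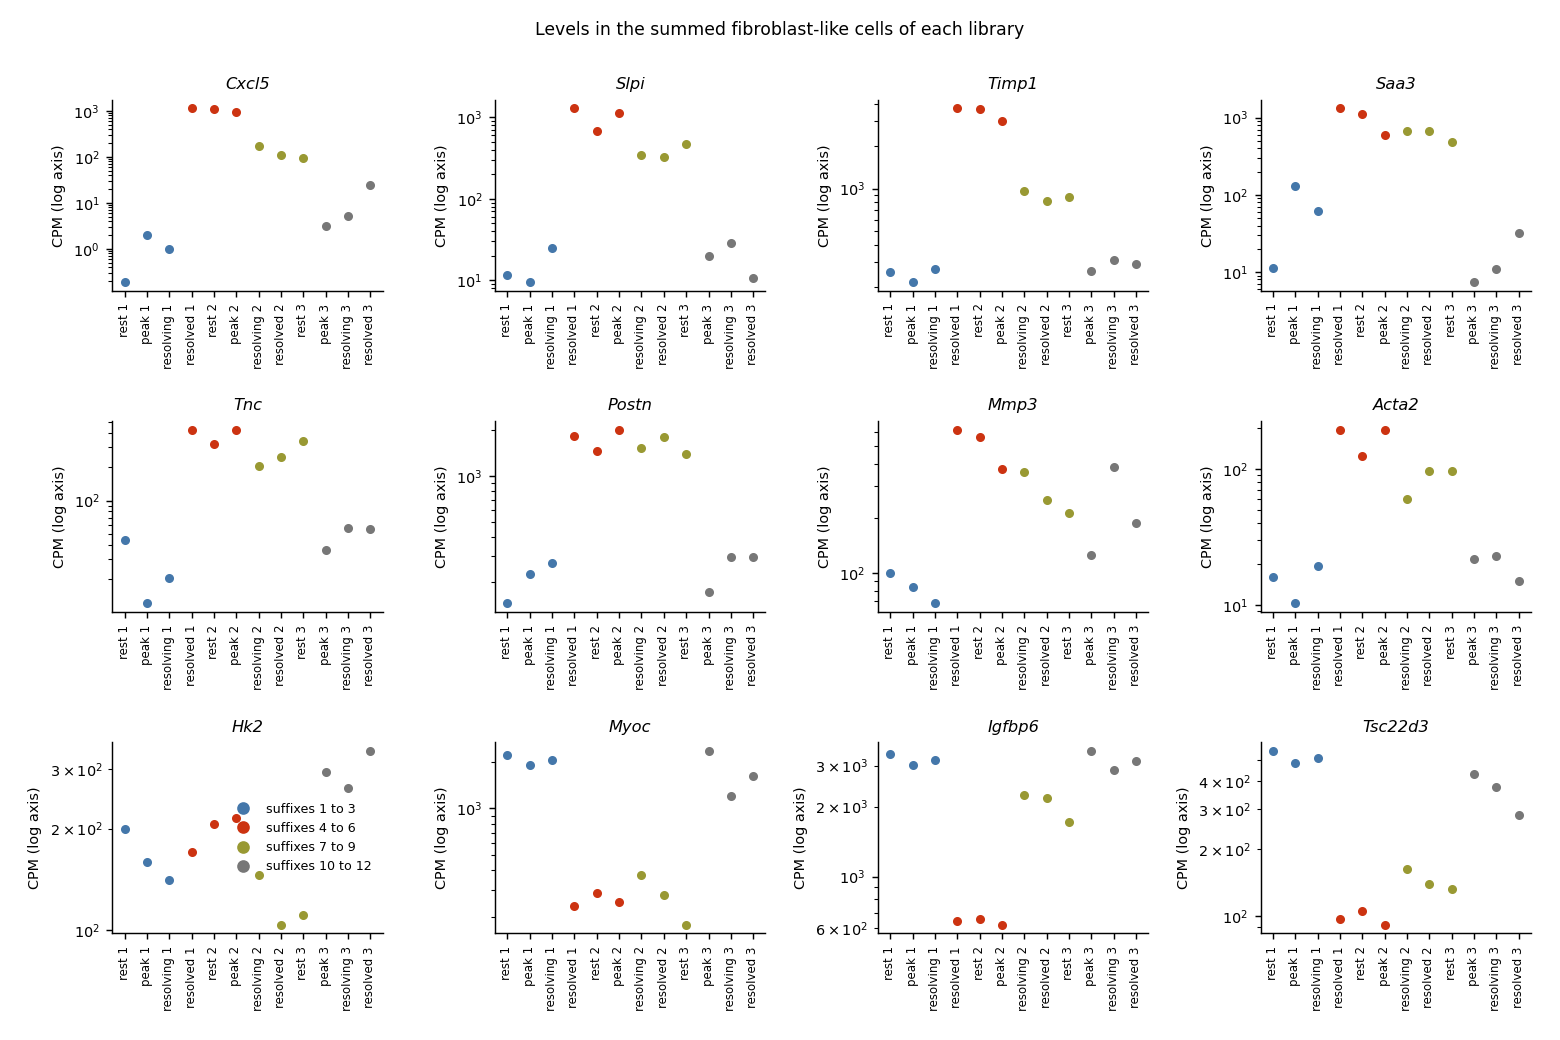
Levels of 12 genes in the summed fibroblast-like cells, in CPM on a log axis, with 1 point per library in the order of the barcode suffix. Cxcl5 lies at 0.191 to 2.06 CPM with suffixes 1 to 3 and at 942 to 1117 CPM with suffixes 4 to 6, while the Hk2 levels of the 2 sides overlap.

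Of 8 matrix metalloproteinases tested, 5 were called higher and none lower (median 1.27). Mmp3, which cleaves many matrix proteins, had 100.5, 84.0 and 68.1 CPM against 615, 562 and 375, with no overlap and a log2 fold change of 2.69 ± 0.20, and 1.69, called, with an equal make-up. Mmp13, a collagenase, had 91.7 CPM in rest 1 but 8.03 in peak 1 and 23.2 in resolving 1, against 161, 249 and 242 (2.48 ± 0.59). With an equal make-up its log2 fold change was 2.21 and it was not called. Mmp14, the membrane-bound collagenase, had 206, 108 and 219.9 CPM against 483, 284 and 536 (1.36 ± 0.26, and 0.55 with an equal make-up). Mmp2 was not called (0.16 ± 0.11, and -0.09 with an equal make-up).

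Of 6 metalloproteinase inhibitors 1 was called higher and 2 lower (median -0.31). Timp1 had 254, 216 and 267 CPM against 3710.4, 3664 and 3045, with a log2 fold change of 3.90 ± 0.14 and 2.46 with an equal make-up. The same-label pairs gave like values for Timp1, 3.85 for rest 2 over rest 1 and 3.81 for peak 2 over peak 1. Timp3 had 318, 221 and 296 CPM against 112, 83.2 and 94.4 (-1.46 ± 0.14), and Reck, a membrane-anchored inhibitor, 41.3, 32.96 and 36.2 against 13.3, 13.3 and 12.6 (-1.42 ± 0.12). Neither was called with an equal make-up, where they had -0.28 and -0.04.

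Of the fibrillar collagens, 9 of 11 were called higher and 2 lower (median 1.64, and with an equal make-up 1 of 9 higher, 1 lower, median 0.47). Col1a1 had 4659, 3761 and 3623 CPM against 11695, 10550.3 and 13502 (1.64 ± 0.14, and 0.46 with an equal make-up). Col3a1 had 3717, 4441 and 4231 CPM against 9442, 9798 and 10033 (1.31 ± 0.13, and 0.47, not called, with an equal make-up). Col5a3, which was also called with an equal make-up (1.59), had 33.1, 20.6 and 29.3 CPM against 146, 141 and 183 (2.58 ± 0.16). The 2 members called lower were the cartilage collagens Col2a1 (-1.66 ± 0.31) and Col11a2 (-1.81 ± 0.36), of which Col2a1 was called with an equal make-up (-1.99) and Col11a2 was not tested. The share of chondrocyte-like cells was also lower on that side, and its part in these values was not tested.

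Of 16 collagen processing enzymes, 7 were called higher and 1 lower (median 0.60). Lox, the collagen cross-linking oxidase, had 169.7, 200.4 and 149.7 CPM against 772, 627 and 819 (2.16 ± 0.15, and 0.49 with an equal make-up). Plod2, a lysyl hydroxylase, had 57.9, 35.2 and 52.3 CPM against 222, 183 and 253 (2.25 ± 0.17, and 1.17, called, with an equal make-up). The enhancer of procollagen cleavage Pcolce2 was the member called lower, with 683, 937 and 889 CPM against 182, 133 and 146 (-2.38 ± 0.16, and -0.67, not called, with an equal make-up). Of 19 genes of protein folding and ER stress, 4 were called higher, Calr, Pdia6, Creld2 and Manf, at 1.22 to 1.32, and none lower (median 0.41). Creld2 was called with an equal make-up, at 1.05, and there Calr (0.70), Pdia6 (0.96) and Manf (0.91) were not.

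Of 15 myofibroblast and scar matrix genes tested, 10 were called higher and none lower (median 2.05, and 6 of 14 higher and 1 lower with an equal make-up, median 1.005). Acta2, which encodes smooth muscle actin, had 16.1, 10.3 and 19.5 CPM against 193, 124 and 193 (3.55 ± 0.22, and 1.23, not called, with an equal make-up). Without Acta2 the other 7 perivascular markers summed to 50.1 to 83.9 CPM against 31.9 to 50.1 in these cells. Postn had 145, 228 and 267 CPM against 1828, 1466 and 2016 (3.12 ± 0.22). Tnc, the matrix protein tenascin C, had 44.7, 12.2 and 20.5 CPM against 425, 318 and 420.2 (3.98 ± 0.35). Cthrc1 had 96.5, 51.5 and 108 CPM against 1033, 1003 and 1321 (3.80 ± 0.23). Postn, Tnc and Cthrc1 were called with an equal make-up too, at 1.27, 2.23 and 1.39. Fibronectin, Fn1 (-0.10 ± 0.12), and Aspn (-0.62 ± 0.16) were not called, and with an equal make-up they had -0.75 and -0.46.

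Of the lubricin and hyaluronan genes 5 of 10 were called higher and 1 lower (median 0.99, and 0 of 8 higher and 1 lower with an equal make-up). Prg4, which encodes lubricin and is the main lining gene, had 20379.9, 12646 and 17118 CPM against 7642, 5212 and 7001 (-1.26 ± 0.18, and -1.12, called, with an equal make-up). The lining-like cluster held 8.41% to 11.2% of the fibroblast-like cells on the side where Prg4 was lower and 6.34% to 7.56% on the other. The cause of the lower Prg4 level was not tested. Tnfaip6, a hyaluronan-binding protein, was called higher at 1.40 ± 0.17, and the proteoglycan Vcan at 1.54 ± 0.19, and with an equal make-up they had 0.99 and 0.77 and were not called.

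Of 20 glycolysis and lactate genes tested, 12 were called higher and none lower (median 1.22, and 4 of 20 with an equal make-up, median 0.39). Slc16a3, the lactate exporter, had 12.2, 7.00 and 9.37 CPM against 134, 58.0 and 85.9 (3.33 ± 0.30, and 1.68, called, with an equal make-up). The glucose transporter Slc2a1 (1.98 ± 0.22), the phosphofructokinase Pfkl (2.38 ± 0.17) and the lactate transporter Slc16a1 (1.72 ± 0.17) were the other members called in both settings, at 1.05, 1.28 and 1.08 with an equal make-up. Gapdh had 575, 563 and 549 CPM against 1957, 1477 and 1663 (1.66 ± 0.12), and Pkm 443, 424 and 445 against 1214, 959 and 1023 (1.35 ± 0.11), and with an equal make-up they had 0.59 and 0.54. Hk2 (chr6:82725025-82774454) was not called. It had 199, 159 and 140.5 CPM in rest 1, peak 1 and resolving 1 and 170.3, 207 and 215 in resolved 1, rest 2 and peak 2, so that the sides overlapped, with a log2 fold change of 0.32 ± 0.14 and same-label values of 0.06 for rest and 0.43 for peak. Hk1 had -0.20 ± 0.14, and with an equal make-up Hk2 and Hk1 had 0.22 and -0.22. Of 11 hypoxia-induced genes 3 were called higher and 1 lower (median 0.49).

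**Figure D3:**
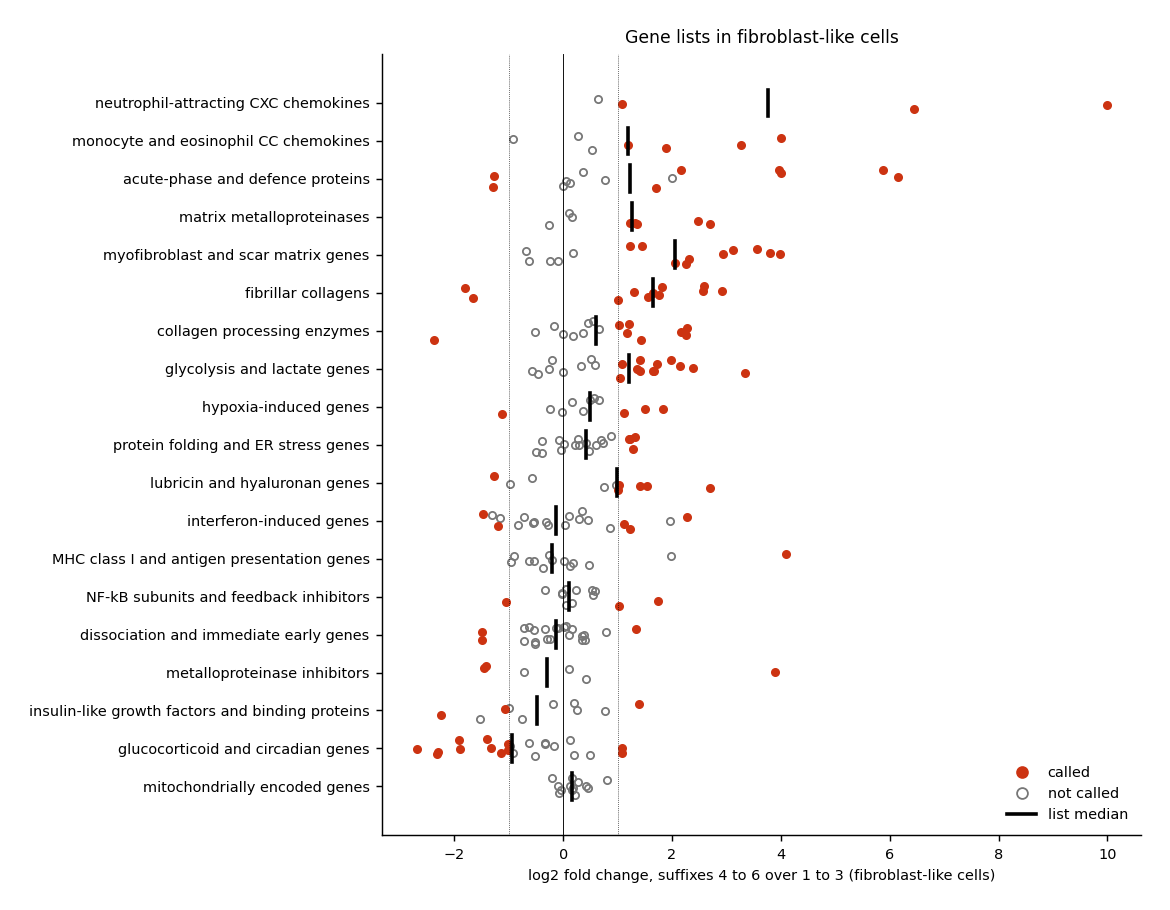
Log2 fold change of each tested gene of 19 lists in fibroblast-like cells, suffixes 4 to 6 over suffixes 1 to 3. Filled points are called genes, open points genes not called, black bars list medians and dotted lines the limit of 1, and the medians run from 3.76 for the CXC chemokines to -0.94 for the glucocorticoid and circadian genes.

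Of 22 glucocorticoid and circadian genes, 10 were called lower and 2 higher (median -0.94, and 3 of 20 lower and 0 higher with an equal make-up, median -0.29). Tsc22d3, a glucocorticoid-induced regulator, had 545, 485 and 508 CPM against 97.4, 106 and 91.8 (-2.31 ± 0.11, and -0.78 with an equal make-up). The clock output gene Dbp had 32.9, 46.5 and 25.9 CPM against 5.26, 5.53 and 4.81 (-2.69 ± 0.24), and Per3 24.1, 31.9 and 29.8 against 5.42, 5.41 and 5.46 (-2.32 ± 0.17). Dbp, Per3 and the clock repressor Nr1d2 were called lower with an equal make-up too, at -1.91, -1.62 and -1.87. Tef, shown above with its E-box, had 31.9, 31.1 and 34.0 CPM against 11.3, 12.1 and 11.4 (-1.40 ± 0.12), and Hlf was called at -1.91 ± 0.23 and Per2 at -1.02 ± 0.18. The core clock genes Arntl (0.20 ± 0.14) and Clock (0.13 ± 0.12) were not called. The kinase gene Sgk1 (1.07 ± 0.18) and Npas2, a partner of the core clock (1.08 ± 0.26), were the members called higher. In the setting of equal make-up Tef (-0.72), Hlf (-0.87), Per2 (-0.61), Sgk1 (0.45), Arntl (0.23) and Clock (0.29) were not called and Npas2 was not tested. The hour at which joints were taken is not given in the sources used here.

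Of 10 insulin-like growth factors and binding proteins, 2 were called lower and 1 higher (median -0.47). Igfbp6 had 3370.0, 3003 and 3155 CPM against 643, 659 and 620.0 (-2.24 ± 0.11), and Igfbp4 753, 915 and 921 against 1949, 2367 and 2154 (1.39 ± 0.14). With an equal make-up they had -0.70 and 0.90, none of the 10 was called and the median was 0.03. Of the secreted Wnt antagonists and R-spondins, 2 of 10 were called higher and 3 lower. Sfrp1 had 31.0, 27.2 and 42.9 CPM against 366, 242 and 394 (3.38 ± 0.21), and Sfrp4, a related antagonist, 1294, 553 and 1163 against 183, 177 and 129.9 (-2.54 ± 0.27). Sfrp1 was called with an equal make-up, at 1.14, and Sfrp4 had -0.79 and was not called. Of the osteoclast-controlling signals, Tnfsf11, which encodes the osteoclast factor RANKL, had 1.53, 1.85 and 0 CPM against 53.7, 45.2 and 49.3 (5.41 ± 0.33). Csf1, the macrophage growth factor, was called lower with 178, 223 and 193 CPM against 83.6, 79.9 and 80.3 (-1.22 ± 0.12), and had -0.08 with an equal make-up. Tnfrsf11b, the decoy receptor of RANKL, was not called (-0.09 ± 0.28) and had 0.59 with an equal make-up, where Tnfsf11 was not tested.

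Lists with medians near 0 were the interferon-induced genes (3 of 20 higher, 2 lower, median -0.13), the MHC class I and antigen presentation genes (1 of 13 higher, 0 lower, median -0.20) and the leukocyte adhesion molecules (1 of 6 higher, 2 lower, median -0.20). Of the prostaglandin enzymes 1 of 9 was called each way (median -0.27), and of 13 mitochondrially encoded genes 0 (median 0.17). With an equal make-up the medians of 6 lists turned positive and 1 turned negative. Beside those of the interleukin-1 and insulin-like growth factor lists above, they turned positive to 0.37 for the interferon-induced genes, 0.27 for the MHC class I genes, 0.07 for the adhesion molecules and 0.23 for the dissociation and immediate early genes, whose median over all cells was -0.13, and the median of the secreted Wnt antagonists and R-spondins went from 0.48 to -0.20. Of the interferon-induced genes Usp18 turned from -1.19, where it was called lower, to 0.36, where it was not called.

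By size of the difference among genes with at least 50 CPM on average on the higher side, those that led the ones called higher, beside Cxcl5, Ccl20 and Slpi, were Fabp5, Ddah1, Adam12, C1qtnf3, Tnn, Acan, Cda, Angptl4 and Wisp1, at log2 fold changes of 4.12 to 5.72. Genes below that level with changes in or above this range included Cxcl3 (6.45) and Tnfsf11 (5.41), Il1rn with its pooled ratio above, and Serpina3g, with 3 UMIs against 284 and a pooled ratio of 60.6 (20.5 to 295.5). Tnn (2.33), Cda (2.25) and Wisp1 (2.03) were called with an equal make-up, C1qtnf3 (1.37) was not, and Ddah1, Adam12, Acan and Ccl20 were not tested. The fatty acid-binding protein Fabp5 had 7.26, 7.83 and 7.64 CPM against 645, 205 and 301 (5.72 ± 0.43, and 1.06 with an equal make-up). Angptl4, an inhibitor of lipoprotein lipase, had 25.8, 36.2 and 19.0 CPM against 395, 544 and 417 (4.12 ± 0.24, and 2.53 with an equal make-up). The cartilage proteoglycan gene Acan had 7.45, 7.00 and 1.97 CPM against 104, 79.8 and 144 (4.33 ± 0.33). Chondrocyte-like cells had a smaller share with suffixes 4 to 6, and their part in the Acan value was not tested.

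The genes that led those called lower were Scg3, Krtdap, Galnt15, Engase, Bglap, Lims2, Myoc, Aldh3a1, Angptl7, Gsta3, Mettl7a1 and Cdo1, at -2.71 to -4.43. Scg3, a secretory granule protein (chr9:75643189-75684056), had 80.8, 28.0 and 56.7 CPM against 2.96, 1.92 and 2.47 (-4.43 ± 0.38, and -3.08 with an equal make-up). Krtdap (chr7:30787896-30791097) had 189.6, 390.5 and 388 CPM against 19.7, 29.7 and 17.2 (-3.78 ± 0.32, and -2.27). Myoc, which encodes myocilin, had 2220.0, 1900.3 and 2039 CPM against 236, 287 and 249 (-2.92 ± 0.12), and with an equal make-up it had -0.56 and was not called. Galnt15 (-1.44), Bglap (-2.75), Lims2 (-1.35), Mettl7a1 (-1.07) and Cdo1 (-1.003) were called with an equal make-up, and Engase (-0.76), Aldh3a1 (-0.80), Angptl7 (-0.93) and Gsta3 (-0.77) were not. Bglap, the osteocalcin gene, had 139.5, 62.4 and 125 CPM against 14.9, 13.7 and 10.0 (-3.00 ± 0.27). Without Bglap and its near-copy Bglap2, between which reads may be split, the other 6 osteoblast markers summed to 96.9 to 252 CPM in fibroblast-like cells with suffixes 1 to 3 and 75.7 to 107.5 with suffixes 4 to 6, with 2 of 5 tested called lower, and their part in the Bglap value was not tested.

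Markers of blood cells moved with the sides in the same direction as the genes called higher. The 5 haemoglobin genes summed to 186 to 302 CPM in fibroblast-like cells with suffixes 1 to 3 and 462 to 1252 with suffixes 4 to 6, and 4 of the 4 tested were called higher. The 17 immune cell markers summed to 13.2 to 21.2 CPM and 31.0 to 76.3, with the defining markers Ptprc and Cd3e at 0 on each side and S100a8 (3.15 ± 0.75) among the 2 of 5 tested that were called. The 24 dissociation and immediate early genes summed to 21236 to 29409 CPM and 16038 to 16960, and of 23 tested 1 was called higher and 2 lower, the heat shock genes Hspa1a (-1.49 ± 0.15) and Hspa1b (-1.48 ± 0.19), which had -0.96 and -1.14 with an equal make-up, only Hspa1b being called there. The part of these markers in the gene results was not tested. In the thinned data, with each cell reduced to 2000 UMIs, 432 of 8860 genes tested were called higher and 379 lower. Of the 834 and 930 genes called with all UMIs, 519 and 612 were tested there, and 383 and 335 were called the same way.

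**Figure D4:**
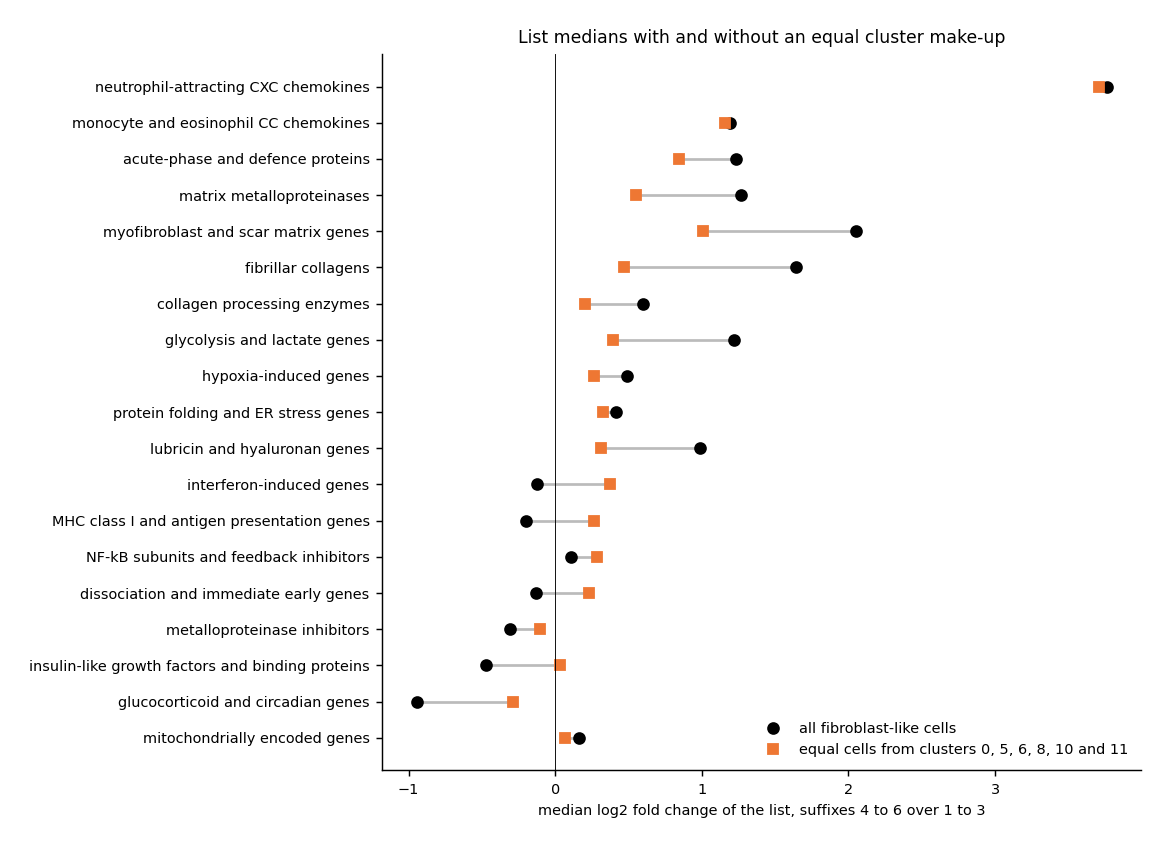
Median log2 fold change of 19 gene lists in fibroblast-like cells, suffixes 4 to 6 over suffixes 1 to 3. Circles use all fibroblast-like cells and squares equal numbers of cells from 6 clusters, without the clusters led by Cxcl5 and by Col5a3. The collagen median goes from 1.64 to 0.47 while that of the CXC chemokines is 3.76 and 3.71.

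In other classes, which share the 6 libraries, the same rule was applied where each library had at least 20 cells, and values are set side by side. In lining fibroblast-like cells, 292 of 5777 genes were called higher (5.05%) and 373 lower (6.46%). All 4 CXC chemokines tested were higher. Cxcl3 had 0 UMIs with suffixes 1 to 3 and 302, 253 and 249.8 CPM with suffixes 4 to 6, which is at least 169-fold higher against a floor of 3 counts over the 3 libraries. Cxcl5 had 1 UMI on the side of suffixes 1 to 3 and 611 on the other, a pooled ratio of 596.5 with a counting interval of 106.7 to 23600. Timp1 had 383, 411 and 497 CPM against 4842, 6863 and 5328 (3.66 ± 0.17). Prg4 was lower within these cells too, with 129338, 93549.8 and 131035 CPM against 57049, 41755 and 73549 (-1.11 ± 0.19). Of 8 fibrillar collagens 7 were higher and 1 lower, with Col3a1 at 387, 379 and 683 CPM against 3435, 3748 and 3689.7 (2.85 ± 0.19). Hk2 was not called (0.06 ± 0.18). The largest lower values were those of the lining marker Htra4 (-3.23 ± 0.49), Scg5 (-3.16 ± 0.31), Ednrb (-3.08 ± 0.35), Bglap (-2.91 ± 0.20) and Pamr1 (-2.77 ± 0.37). Osteoblast markers without Bglap and Bglap2 summed to 349.8 to 415 CPM against 293.5 to 418, which overlap, and the Schwann cell markers to 233 to 286 against 43.4 to 72.1, with the 1 tested called lower, and their part in these values was not tested.

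In sublining fibroblast-like cells, with 20 to 26 cells in each library of suffixes 4 to 6, 98 of 4991 genes were called higher (1.96%) and 175 lower (3.51%). The 273 calls became 41 without peak 1, 49 without resolving 1, 59 without rest 1, 1051 without resolved 1, 1068 without rest 2 and 1255 without peak 2. The number of genes tested moved with the side of the library left out, to 1623 to 1635 without one of suffixes 1 to 3 and 7335 to 7546 without one of suffixes 4 to 6. Stmn2 had 135, 137 and 117 CPM against 0, 0 and 9.53, the last being 1 UMI. Cxcl13, a B cell chemokine, had 165, 99.7 and 79.2 CPM against 0, 13.2 and 0, again 1 UMI. Sfrp2 had 109, 119 and 130.4 CPM against 1742 in resolved 1 but 198 and 229 in rest 2 and peak 2.

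In tenocyte-like cells, 112 of 4823 genes were called higher (2.32%) and 133 lower (2.76%). Angptl4 (3.33 ± 0.33), Bdnf (3.19 ± 0.39), Matn4 (2.45 ± 0.40) and Lcn2 (2.43 ± 0.29) were among those higher. Of the CXC chemokines 0 were higher and 1 lower of 2 tested. Cxcl2 had 33.7, 68.0 and 27.5 CPM against 4.81, 14.1 and 0 (-2.44 ± 0.64, on 98 and 7 UMIs) and Cxcl1 was not called (0.16 ± 0.33). Bdnf had 8.19, 6.05 and 3.43 CPM against 57.8, 44.8 and 74.1. Anxa8 had 861, 646 and 930.5 CPM against 265, 108 and 141 (-2.25 ± 0.27), and Mustn1 299, 190.5 and 282 against 67.4, 42.4 and 30.3 (-2.48 ± 0.27).

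In osteoblast-like cells, 44 of 6129 genes were called higher (0.718%) and 78 lower (1.27%), the lowest shares of the 8 groups of cells together with those of endothelial cluster 9. Saa3 had 1.43, 1.14 and 0 CPM against 21.6, 19.2 and 387, so that peak 2 held most of its UMIs. The haemoglobin genes in these cells summed to 210.2 to 309 CPM against 439 to 10339, and their part was not tested. Angptl4 had 121, 110.2 and 112 CPM against 462, 362 and 596 (2.08 ± 0.18). Gpnmb had 74.3, 52.3 and 100.1 CPM against 18.5, 19.2 and 13.7 (-2.07 ± 0.35).

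In perivascular-like cells, the contractile cells around vessels, 284 of 3518 genes were called higher (8.07%) and 221 lower (6.28%). Of 7 fibrillar collagens tested 6 were higher and none lower (median 2.55), with Col1a1 at 486, 191 and 64.8 CPM against 1822, 1560.3 and 2205 (2.80 ± 0.40) and Col3a1 at 732, 523 and 213 against 2714, 2797 and 2511 (2.39 ± 0.28). Il33 had 0 UMIs with suffixes 1 to 3 and 57.2, 172 and 159 CPM with suffixes 4 to 6, at least 20.6-fold higher. The cell-cycle genes Mki67 and Tk1 were likewise at 0 and at least 8.57-fold and 10.4-fold higher, and Cxcl3 at least 28.2-fold. Hk2 was called here, with 58.9, 12.3 and 27.8 CPM against 84.3, 103 and 136 (1.59 ± 0.43), on 17 and 110 UMIs. The contractile gene Acta2 was not called, with 10256, 13425 and 13531 CPM against 12769, 7868 and 10567 (-0.26 ± 0.18), and Myl9 was lower, with 5268, 8001 and 7743 against 3882, 2322 and 3223 (-1.16 ± 0.20). Cd24a had 113, 79.9 and 74.1 CPM against 3.01, 9.07 and 2.84 (-4.10 ± 0.48). In these cells the dissociation and immediate early genes summed to 31357 to 34120.0 CPM against 17329 to 18457, the mitochondrially encoded genes to 43109 to 58154 against 33697 to 37034, the haemoglobin genes to 139 to 319 against 408 to 714 and the markers of proliferating cells to 0 to 6.15 against 287 to 414. Their part in the values above was not tested.

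In vascular endothelial-like cells, 211 of 3805 genes were called higher (5.55%) and 314 lower (8.25%). Of the 21 dissociation and immediate early genes tested, 14 were lower and none higher (median -1.22, against -0.01 over all genes tested). Fos had 7053, 5421 and 4637 CPM against 2193, 2064 and 2084 (-1.46 ± 0.14), and Egr1 1813, 971 and 1356 against 547, 378 and 328 (-1.76 ± 0.22). Of 10 interferon-induced genes 7 were lower and none higher (median -1.42). Irf1 had 712, 434 and 394 CPM against 178, 98.3 and 147 (-1.92 ± 0.26), and Isg15 395, 419.6 and 170.2 against 95.5, 93.1 and 157 (-1.55 ± 0.31). In endothelial cluster 9 the dissociation and immediate early genes summed to 43549 to 48002 CPM with suffixes 1 to 3 and 44185 to 56641 with suffixes 4 to 6, which overlap, while in the vascular endothelial-like cells they summed to 32843 to 42463 and 15009 to 17224. Mest, an imprinted gene of growing tissue, had 5.27, 58.5 and 15.9 CPM against 566, 747 and 740.3 (4.60 ± 0.38). The cell-cycle gene Top2a had 21.1, 0 and 5.32 CPM against 140.0, 93.1 and 98.0 (3.57 ± 0.53). Cytl1 (-3.99 ± 0.35), Penk (-4.25 ± 0.69), Ptprr (-3.71 ± 0.49), Cck (-3.62 ± 0.45) and Ecm2 (-3.31 ± 0.34) had the largest lower values. Cck is also a leading gene of the perivascular cluster, and the perivascular markers summed to 2143 to 2337 CPM against 879.6 to 1477 in the endothelial cells, with 1 higher and 3 lower of 7 tested, and their part was not tested. Of 12 glycolysis genes 3 were higher, with Gapdh at 680.0, 908 and 744 CPM against 1903, 2269 and 1976 (1.37 ± 0.15).

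In endothelial cluster 9, 39 of 3294 genes were called higher (1.18%) and 42 lower (1.28%). Ccl7 had 10.2, 12.1 and 7.12 CPM against 143, 64.7 and 367 (4.21 ± 0.63), and Timp1 15.2, 6.03 and 7.12 against 143, 79.1 and 80.5 (3.26 ± 0.51), on 10 and 32 UMIs. Fibroblast-like cells of suffixes 4 to 6 had 2864 to 3298 CPM of Ccl7 and 3045 to 3710.4 of Timp1. In cluster 9 the haemoglobin genes summed to 226 to 1228 CPM against 345 to 10593 and the tenocyte markers to 21.4 to 27.9 against 43.1 to 978, and the part of RNA from other cells was not tested. The endothelial transcription factor gene Tcf15 had 424, 802 and 256 CPM against 203, 64.7 and 35.8 (-2.38 ± 0.50).

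**Figure D5:**
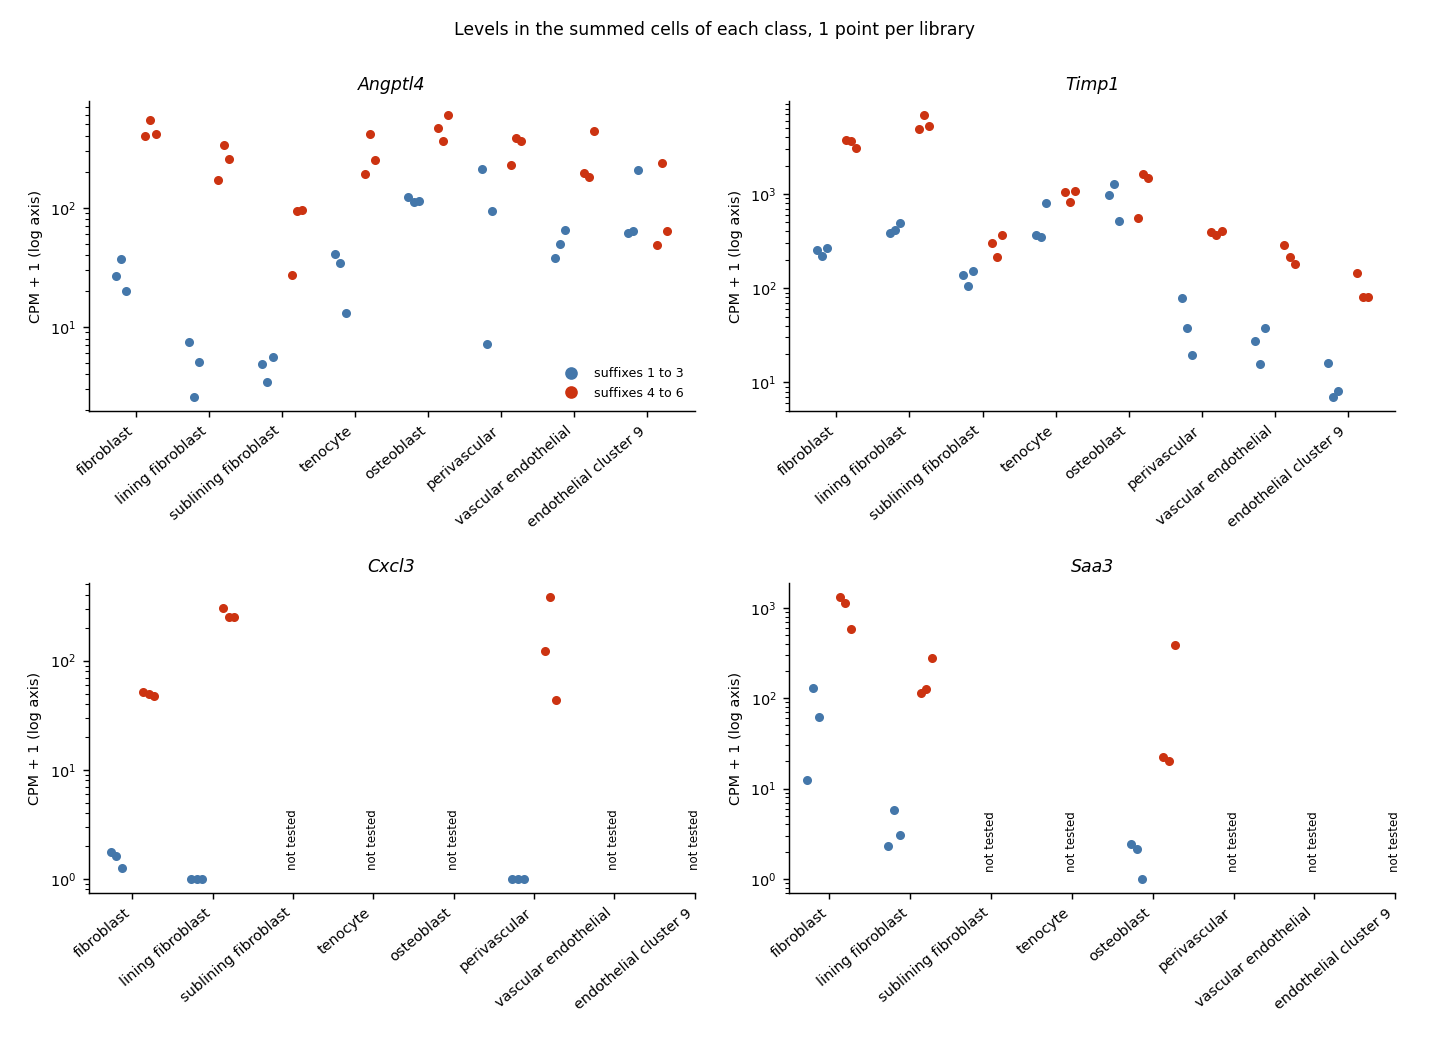
Levels of Angptl4, Timp1, Cxcl3 and Saa3 in the summed cells of 8 groups, in CPM with 1 added, on a log axis, with 1 point per library. In osteoblast-like cells Angptl4 lies at 110.2 to 121 CPM with suffixes 1 to 3 and at 362 to 596 CPM with suffixes 4 to 6, and a class in which a gene was not tested is marked.

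The other 6 libraries were not used to make the calls, although their likeness by suffix was known. Of the 834 genes called higher in fibroblast-like cells, 605 (72.5%) had all 3 libraries of suffixes 7 to 9 above all 3 of suffixes 10 to 12, and 17 the opposite. Of the 930 called lower, 603 (64.8%) had them all below and 32 all above. Of all 11341 genes tested, 25.1% had suffixes 7 to 9 all above and 24.0% all below. Cxcl5 had 94.0 to 170.1 CPM with suffixes 7 to 9 and 3.12 to 24.9 with suffixes 10 to 12, levels between those of the 2 sides. Timp1 had 821 to 966 CPM and 259 to 309. Col1a1 had 13251 to 16181 CPM and 3290.3 to 4914, so that its level with suffixes 7 to 9 reached that with suffixes 4 to 6. Lcn2 overlapped, with 16.7 to 23.5 CPM and 17.2 to 45.6. Hk2 was lower with suffixes 7 to 9, at 104 to 146 CPM against 264 to 339.6. Suffixes 7 to 9 are labelled resolving 2, resolved 2 and rest 3, and suffixes 10 to 12 peak 3, resolving 3 and resolved 3.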

How the data were processed

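Synovial CD45-negative cells from pools of 3 animals were captured with the 10x 3′ version 2 kit and read 2 was sequenced to 75 bp. The authors aligned reads to mm10 with Cell Ranger 2.1.1 and deposited whole-number counts of UMIs per gene and cell, for 27998 genes in 21042 cells of 12 libraries. The median of 5358 UMIs per deposited cell is the same in all libraries; how this came about is not given in the sources used here.

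Cells with more than 500 and fewer than 5000 detected genes were kept. Counts were scaled to 10000 per cell, and 2000 variable genes and 30 principal components went into a graph of 20 neighbours and Leiden clusters at resolution 1 (scanpy 1.11.5, leidenalg 0.10.2). Clusters were named from lists of markers for 16 classes. The limits for a name were set after the clusters were seen. Counts were summed per library and class where each library had at least 20 cells and fitted with edgeR 4.0.16 (quasi-likelihood, TMM, filterByExpr, only the 6 libraries compared), and log2 levels used a prior count of 2. Library groups, gene lists and members were chosen with earlier results of these data known, and the sides were chosen by the data, so no p-value is given. Named genes are Hk2 and other genes the study names, members of 30 lists, and the 12 called genes a direction with the largest change in fibroblasts, or 5 in other classes, with at least 50 CPM on 1 side. Intervals of shares are exact 95% Clopper-Pearson intervals and cover counting error only. No doublets were removed in the main analysis. Scrublet's own threshold marked 56 cells (0.277%), which was taken as not having worked, and the highest 6% of scores per library were left out as an alternative. The edgeR fit and the call rule were tested on simulated counts, made with the means and spread of fibroblast-like cells only. Fewer genes were changed there than were called in the data. Other alternatives were DESeq2 1.42.0, other filters, thinning to 2000 UMIs per cell, which left out 554 cells, and an equal cluster make-up. The alternatives of equal cluster make-up and of clusters made without the called genes are described with their results.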

Additional observations from a re-analysis of the deposited data

Results flagged for a closer look

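In several genes the difference between suffixes 4 to 6 and suffixes 1 to 3 ran in opposite directions in at least 2 groups of cells. The 4 given here with values had no overlap of the libraries in the groups whose values are given. In none of these was the difference between the groups of cells tested. Cxcl2, a neutrophil chemokine, had a log2 fold change of 1.17 in perivascular-like cells and -1.10 in endothelial cluster 9. It was also called lower in tenocyte-like cells, on few UMIs, while all 4 CXC chemokines tested in lining-like cells were higher. Cytl1 had -3.99 in vascular endothelial-like cells and 2.56 in endothelial cluster 9. Eln, which encodes elastin, had -1.44 in vascular endothelial-like cells and 2.85 in endothelial cluster 9. Ramp1, a receptor partner of calcitonin gene-related peptide, had -2.42 in fibroblast-like cells and 2.00 in osteoblast-like cells. These 4 were picked out of all named genes in 8 groups of cells, and they are not the only such genes. Myl9 was higher in fibroblast-like and lower in perivascular-like cells. Isg15 was higher in fibroblast-like and lower in vascular endothelial-like cells.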

How the results depend on the processing

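No paired analysis was possible because the replicate numbers do not pair the libraries, and the sides share only number 1. A fit of the rest and peak libraries alone, with the label as a block, pairs by stage and called the same way 772 of the 834 and 843 of the 930 fibroblast genes. That setting uses only libraries that made the calls, so the lack of overlap carries over, apart from rescaling. These counts are therefore no separate support. Without a filter on low counts, genes called became 1421 higher in fibroblast-like cells (18043 tested, 11341 in the main analysis), and 887 of the 930 lower ones were called the same way. Either way they became 899 in osteoblast-like (122 in the main analysis), 1661 in perivascular-like (505) and 1013 in tenocyte-like cells (245). They became 1711 in vascular endothelial-like (525), 1574 in lining-like (665) and 1976 in sublining-like cells (273) and 895 in endothelial cluster 9 (81). In that order, genes tested rose to 15185 from 6129, 13378 from 3518, 14282 from 4823, 13810 from 3805, 14202 from 5777, 13964 from 4991 and 13028 from 3294. With cells thinned to 2000 UMIs they were 432 higher and 379 lower of 8860 tested in fibroblasts, and in the same order of classes 59, 179, 137, 145, 252, 110 and 51. Those classes had 2791, 1637, 2663, 1453, 2122, 2230 and 1958 genes tested. Of the 834 and 930 fibroblast genes, 519 and 612 were tested with thinned cells, and 383 and 335 were called the same way. With an equal cluster make-up, genes called were 147 and 153 of 8720 tested in fibroblasts. With an edgeR adjusted p-value in place of the rule on overlap they were 28 in osteoblast-like, 143 in tenocyte-like and 26 in sublining-like cells and 16 in endothelial cluster 9. The adjusted p-value serves there as another cut-off and not as a test, because the sides were chosen by the data. With the label as a block, genes called in these 4 groups of cells were 318, 444, 579 and 222, of 6262, 5183, 5152 and 3671 tested. Leaving out 1 library at a time gave 821 to 993 higher and 994 to 1067 lower in fibroblasts, 774 to 851 in lining-like cells, 97 to 462 in osteoblast-like cells (462 without resolved 1, 458 without rest 2, 360 without peak 2), 482 to 933 in perivascular-like cells (933 without rest 1, 818 without peak 1), 252 to 488 in tenocyte-like cells (488 without resolved 1, 478 without rest 2, 398 without peak 2), 506 to 909 in vascular endothelial-like cells (909 without peak 1, 796 without rest 1), 41 to 1255 in sublining-like cells and 76 to 396 in endothelial cluster 9 (396 without rest 2, 287 without peak 2, 270 without resolved 1). Differences in share moved, in percentage points, from -7.73 to -11.4 for osteoblast-like cells and turned from 1.47 to -2.78 for vascular endothelial-like cells at Leiden resolution 0.5. With clusters made without the called genes they moved from 10.5 to 7.79 for proliferating-like and from -4.15 to -1.68 for tenocyte-like cells and turned to -2.63 for vascular endothelial-like cells. Leaving out 1 library gave -4.65 to -3.84 for chondrocyte-like, 4.10 to 10.4 for fibroblast-like, -2.81 to -2.26 for muscle-like, -9.22 to -5.59 for osteoblast-like, 0.844 to 1.48 for perivascular-like, 9.54 to 11.9 for proliferating-like, -4.64 to -3.20 for tenocyte-like and 0.986 to 1.76 for vascular endothelial-like cells. The cause of these changes was not tested, beyond the fewer genes, cells or libraries that some alternatives hold by their construction. Leaving out 1 library also shifted how many genes were tested. They were 11485 to 11698 in fibroblasts, 6160 to 6209 in lining-like, 4620 to 7700 in osteoblast-like and 3242 to 4671 in perivascular-like cells. In tenocyte-like cells they were 4796 to 5657, in vascular endothelial-like 3513 to 4795, in sublining-like 1623 to 7546 and in endothelial cluster 9 2484 to 4612. Of 35 genes followed over all alternatives none changed sign once called. The 35 are the 12 called genes with the largest change each way and the tested genes the study names. A kept sign could therefore be foreseen for most of them. In all, 74 of their values moved beyond the spread, 26 with an equal make-up, where only 5 did not move and the rest were not tested. With thinning 22 moved, 8 at Leiden resolution 0.5, 6 without the lining-like and sublining-like clusters and 0 to 4 in each other alternative. Beyond these 35, Il1r2 and Usp18 turned with an equal make-up, from -1.28 to 0.34 and from -1.19 to 0.36, where neither was called. Depth limits the classes with few cells, where many genes rest on under 20 UMIs a side.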
